A study of Homo sapiens with 12 samples.

Results

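The genes examined here encode the enzymes that build purine, pyrimidine and deoxyribonucleotides, together with the kinases and salvage enzymes that feed the same pools. They are a list of 31 gene symbols, matched by Ensembl identifier to rows of the count table, which has 70116 genes in all. Every one of the 31 was found, and all of them were among the 16197 genes that passed the filter on low counts. MiaPaCa-2 cells, a long-established line from a human pancreatic carcinoma, had been transfected with small interfering RNAs (siRNAs) before RNA-seq. The siControl group received a control siRNA. The siSLC25A1 group was targeted at the mitochondrial citrate carrier, the siACLY group at ATP citrate lyase, and the siACO1 group at cytosolic aconitase. Each group had 3 libraries, and no group differs from the others in the labels in any respect but the siRNA. All groups are of 1 cell line, and the labels give neither the time after transfection, the medium at harvest nor how many siRNAs were used per target. Nothing in the labels says that replicates came from separate cultures, so the p-values measure the spread between these libraries, which may be technical.

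Nucleotides are made either from small precursors or by salvage of bases and nucleosides. In the purine branch a ring is built step by step on phosphoribosyl pyrophosphate (PRPP) with glutamine, glycine, aspartate and formyl groups carried by folate, and ends at IMP, from which AMP and GMP are made. In the pyrimidine branch the ring is built first, from glutamine and aspartate, and is then joined to PRPP to give UMP and, from it, CTP. Ribonucleotide reductase turns ribonucleoside diphosphates into deoxyribonucleotides, thymidylate synthase makes dTMP with a folate cofactor, and both are most active in cells that copy their DNA. Citrate exported from mitochondria and split by ATP citrate lyase gives oxaloacetate as well as acetyl-CoA, and oxaloacetate can be transaminated to aspartate.

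Library totals lay between 24159424 and 43792811 counts. Each target was lowered by its own siRNA: SLC25A1 was at 8.75% of its control level, ACLY at 7.24% and ACO1 at 3.72%. KRT8, KRT18, KRT19 and VIM, markers of an epithelial line with mesenchymal traits, were between 47.2 and 4809 CPM (counts for each 1000000 counts of a library) in every library, while EPCAM and CDH1 had at most 2 counts in any library. PRSS1, CPA1, CELA3A, INS, GCG, PTPRC and CD3E had no counts, and the other markers of leukocytes, endothelium and fibroblasts reached at most 2.23 CPM. A pair of libraries stood apart from their replicates. SiACO1 replicate 3 differed from siACO1 replicates 1 and 2 with a chi-square per degree of freedom of 11.9 and 12.6, against 2.31 between those replicates. SiSLC25A1 replicate 1 had a summed level of 17 DNA replication and cycling genes of 3815 CPM, above the 3332 and 3292 CPM of replicates 2 and 3. Calls below that are lost without any 1 library are given with the value without it. Calls gained in another setting are given for some of the genes only.

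To compare levels between genes, CPM were scaled with TMM factors, which correct for a few genes that take up many counts, and divided by the kilobases of exons in GENCODE release 29. In siControl the highest of the 31 was TK1, the cytosolic thymidine kinase of salvage, at 84.8 ± 1.40 CPM per kb (SD, n = 3). It was followed by APRT, which salvages adenine, at 76.0 ± 0.452, and by ATIC, which closes the purine ring, at 71.0 ± 0.631. Next came PRPS2, a PRPP synthase, at 68.2 ± 1.55 and HPRT1, the salvage enzyme of hypoxanthine, at 62.8 ± 1.37 CPM per kb. IMPDH1 (56.7 ± 1.36) and RRM2 (55.5 ± 1.40), PAICS (52.9 ± 0.820) and PRPS1 (51.8 ± 0.924), and PRPS1 and CAD (49.1 ± 2.47) are pairs of neighbours whose ranges of mean ± SD overlap. RRM2, the small subunit of ribonucleotide reductase made in dividing cells, was higher per kilobase than the large subunit RRM1, at 45.3 ± 1.16 CPM per kb, and both were above RRM2B, the small subunit that also serves resting cells, at 6.84 ± 0.174. The lowest were ADSL, IMPDH2 and ADSS1, at 2.09 ± 0.0846, 1.88 ± 0.0989 and 0.209 ± 0.0324 CPM per kb. ADSS1 is the muscle form of adenylosuccinate synthase, and its 16 to 50 counts per library leave its fold changes imprecise. IMPDH2 is known as the more widely expressed form of IMP dehydrogenase, yet it had only 109 to 238 counts per library and lay far below IMPDH1 per kilobase. In that release, 3.4% of the exon bases of IMPDH2 overlap another gene, but 11855 identifiers of the count table are not in it. The annotation behind the counts was not used here, and how far overlaps in it, such as read-through genes, lower the counts of IMPDH2 and ADSL was not tested, so their low levels may be levels of the counting rather than of the transcripts.

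**Figure D1:**
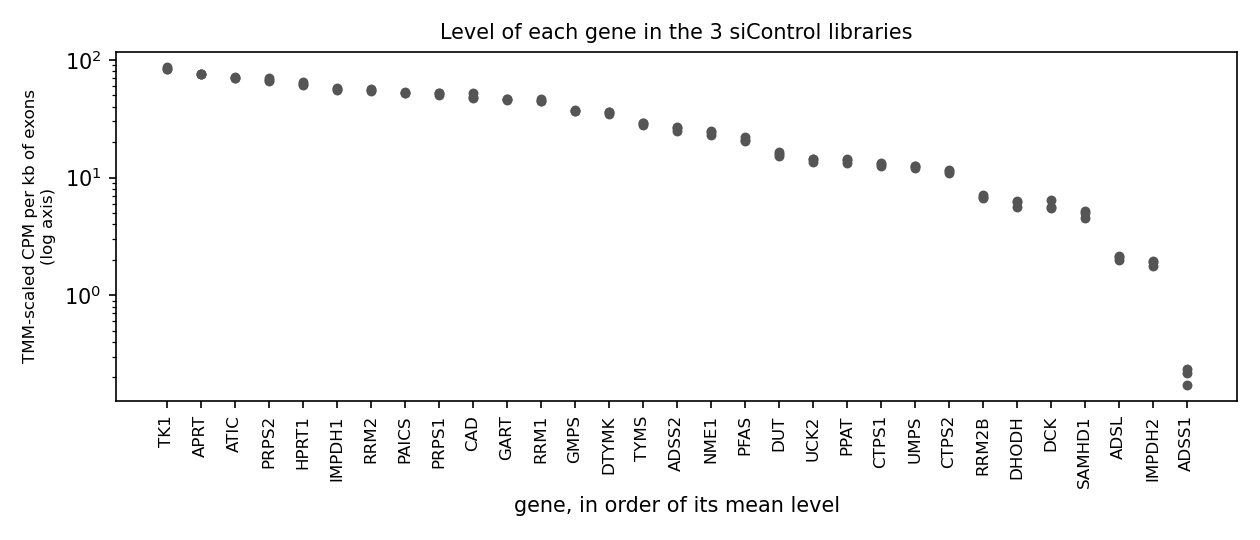
TMM-scaled CPM per kilobase of exons (log axis) of the 31 genes in the 3 siControl libraries, 1 point per library, in order of the mean. TK1 and APRT stand at the upper end and ADSL, IMPDH2 and ADSS1 at the lower end.

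Counts of 4 of the genes are uncertain by a rule of at least 20% of exon bases overlapped by another gene, or of 31-base stretches found in transcripts of other genes. For TYMS 46.6% of the exon bases overlap ENOSF1 on the opposite strand, and for RRM2 20.2% overlap a longer gene model on the same strand. NME1 shares 20.4% of its stretches with other genes, foremost the NME1-NME2 read-through gene, and ADSL 21.8%. Genes below this rule share stretches too, among them IMPDH1 with 17.6% and SAMHD1 with 14.1%. For SAMHD1 10.3% of the exon bases are overlapped, foremost by TLDC2 on the opposite strand. Whether the authors' counting used the strand is not given in the sources used here.

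Some of the results below concern genes that share a promoter, and others concern genes with matches to the motifs searched here. Stretches before RefSeq starts of some of these genes are shown for reference. They are from RefSeq on GRCh38.p14, in a table of promoters (250 bases before to 50 after the start) that has 28 of the genes. Some genes have several starts there, and each short window below lies before 1 of them. The windows of TYMS, DUT, RRM2, SAMHD1 and DCK lie within the spans of these genes in GENCODE 29. Those of RRM2 (start 10122739) and DUT (start 48332197) also lie after an earlier RefSeq start of the same gene. PPAT, the first enzyme of purine ring synthesis, and PAICS, which carries out a later pair of steps, are read in opposite directions from 1 stretch on chromosome 4: PPAT starts at 56435615 on the minus strand and PAICS at 56435752 on the plus strand, with 136 bases between. The first line gives chr4:56435616-56435740, read 5′ to 3′ on the plus strand, which ends before the earliest PAICS start of GENCODE 29. The others are short windows around matches, with the matched letters in capitals: the E2F consensus in TYMS (chr18:657604-657631, plus strand) and DUT (chr15:48332150-48332179, plus strand), CCAAT in RRM2 (chr2:10122641-10122670, plus strand) and SAMHD1 (chr20:36951739-36951768, minus strand), and the E-box CACGTG in DCK (chr4:70993521-70993550, plus strand).
PPAT and PAICS, between the starts: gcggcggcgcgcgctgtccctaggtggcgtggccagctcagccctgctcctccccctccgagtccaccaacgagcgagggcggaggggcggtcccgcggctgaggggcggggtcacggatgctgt
TYMS: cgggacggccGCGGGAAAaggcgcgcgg
DUT: ggctgGCGGGAAAtttcggtTTTGGCGCgc
RRM2: cacagCCAATgggaagggccggggcaccaa
SAMHD1: tgcgcaggaggCCAATaggctgCCAATact
DCK: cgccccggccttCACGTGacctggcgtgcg

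The E2F consensus was searched as TTTCCCGC, TTTCGCGC, TTTGCCGC and TTTGGCGC, beside the E-box CACGTG, the cell cycle homology region TTTGAA and CCAAT, on both strands of the 300 bases. None of the 4 motifs contains another, although matches may share bases where they adjoin. E2F matches were found for 5 of 28 genes (17.9%; DCK, DUT, GART, PRPS2 and TYMS), against 4.0% of the 27305 genes of the table. E-boxes were found for 6 (21.4%; ATIC, DCK, DHODH, NME1, PAICS and PPAT), against 8.8%. The shares for TTTGAA were 14.3% and 18.2%, and those for CCAAT 39.3% and 39.7%. The stretch between PPAT and PAICS holds none of the 4 motifs, and the E-box counted for both genes lies 40 to 45 bases after the PAICS start, with the start counted as 0. These matches describe letters only.

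Knockdown of SLC25A1 left most of the genes near their control level. RRM2, CTPS1 and TYMS rose and PPAT, APRT and PRPS2 fell, while the other 25 did not pass the test. Called higher were 3 of 31, where 10.3% of all tested genes were called higher, and called lower were 3, where 9.27% of all genes were. The threshold for a call was an adjusted p of 0.05 in edgeR's quasi-likelihood test, fitted over all 12 libraries with Benjamini-Hochberg adjustment over all tested genes, and this test gave all adjusted p-values below. The median log2 fold change of the 31 genes was -0.01, beside -0.0045 over all tested genes. The largest change was that of RRM2, at 0.37 on the log2 scale, or 129% of control.

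Knockdown of ACLY lowered more of the genes, 13 of 31, and raised 2, CTPS1 and HPRT1. Over all genes 18.3% were called lower and 18.4% higher. IMPDH1 fell most, followed by CTPS2, TK1, SAMHD1, UMPS, GMPS, PPAT and UCK2, and then PAICS, DTYMK, DHODH, PRPS2 and PFAS. The falls reached from purine and pyrimidine ring synthesis to thymidine salvage. The median over the 31 genes was -0.10, beside 0.01 over all genes. Scaling by library totals alone, without TMM factors, gave 4 higher and 11 lower, which moves the share of higher calls from 13.3% to 26.7%. Over all genes the same change of scaling moved that share from 50.1% to 61.0%. Leaving out siControl replicate 3, siACLY replicate 1 or siACLY replicate 2 left 1 gene called higher.

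Knockdown of ACO1 also lowered 11 of the 31 genes and raised 3, RRM2, SAMHD1 and ADSS2. Over all genes 19.3% were called lower and 17.8% higher. DCK fell most, before IMPDH1, GART, DHODH, APRT and GMPS, and PAICS, ATIC, UCK2, UMPS and PFAS fell by less. The median was -0.08, beside 0.01 over all genes. With library totals alone the calls were 5 higher and 10 lower, a share of higher calls of 33.3% against 21.4%. Over all genes that share was 59.4% against 47.9%. Without siACO1 replicate 3 they were 3 higher and 13 lower, with PRPS2 (-0.11) and NME1 (-0.17) added. The comparisons of the 3 knockdowns with siControl share the same control libraries, so their values are given side by side and not counted together.

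**Figure D2:**
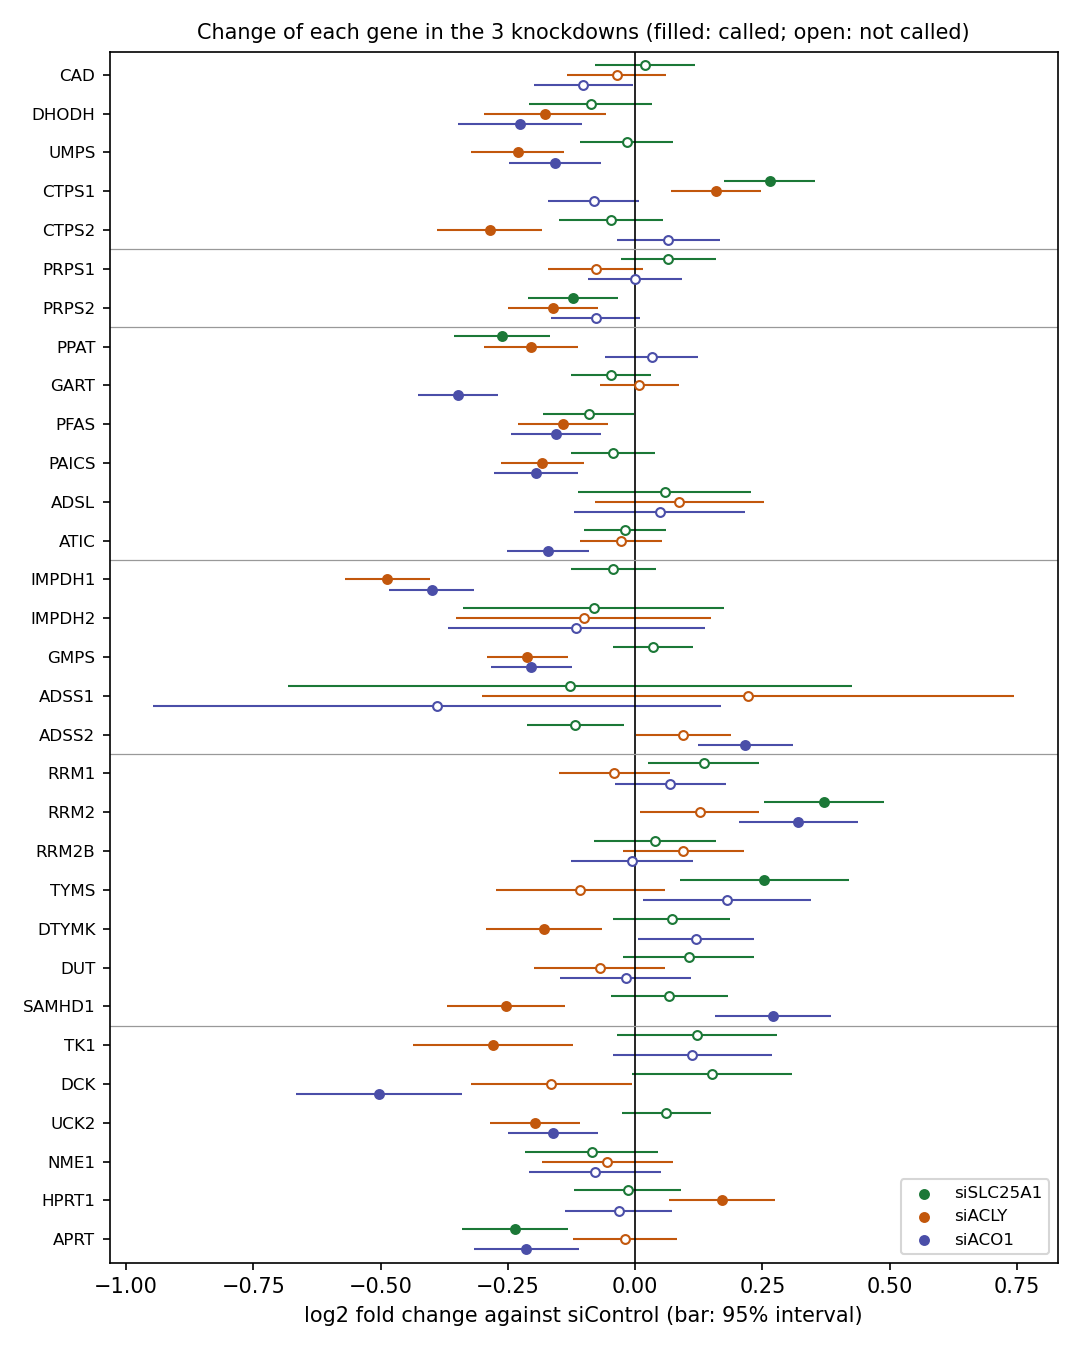
Log2 fold change against siControl (x axis) of each of the 31 genes (y axis, grouped by role) in siSLC25A1, siACLY and siACO1; bars are 95% intervals from the edgeR fit, filled points were called and open points were not. IMPDH1 lies far below 0 in siACLY and siACO1, DCK and GART in siACO1, and RRM2 above 0 in siSLC25A1 and siACO1.

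Contrasts between the knockdowns do not use the control means, although the control libraries add to the shared estimate of the spread. Against siACLY, siSLC25A1 had 15 of the 31 genes called higher and 3 lower, beside 17.5% and 16.3% of all genes, with medians of 0.10 and -0.01. Without siSLC25A1 replicate 1, and likewise without siACLY replicate 3, 11 were called higher. The 15 were IMPDH1, TK1, TYMS, SAMHD1, DCK, UCK2, DTYMK, GMPS, RRM2, CTPS2, UMPS, DUT, RRM1, PRPS1 and PAICS, and the 3 lower ones were APRT, ADSS2 and HPRT1. Against siACO1, siSLC25A1 had 10 called higher and 3 lower, beside 21.8% and 20.3% of all genes, with medians of 0.07 and -0.01. The genes higher in siSLC25A1 were DCK, IMPDH1, CTPS1, GART, GMPS, UCK2, PAICS, ATIC, UMPS and CAD, and those lower were ADSS2, PPAT and SAMHD1. With library totals alone, the counts were 8 and 4, a share of higher calls of 66.7% against 76.9%. Over all genes that share was 42.3% against 51.8%. SiACLY against siACO1 gave 6 higher and 8 lower, beside 21.4% and 20.7%, and the median was -0.01, beside -0.0044. The genes higher in siACLY were GART, DCK, CTPS1, HPRT1, APRT and ATIC, and those lower were SAMHD1, TK1, CTPS2, DTYMK, TYMS, PPAT, RRM2 and ADSS2. ADSL, ADSS1, IMPDH2, NME1 and RRM2B were called in none of the 6 comparisons with all libraries, by edgeR or DESeq2, and had 0 values at an unadjusted p under 0.05 except 1 of ADSS1; ADSS1 was called between siACLY and siACO1 without siACLY replicate 1 (0.79) or siACO1 replicate 3 (0.78).

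Summed over the 31 genes, the control libraries held 4344 to 4401 CPM. The sums were 4019 to 4216 CPM with siACLY, 4098 to 4211 with siACO1 and 4374 to 4645 with siSLC25A1. With TMM factors the sums in siACLY and siACO1 lay below every control library; with library totals siACLY replicate 1, at 4286 CPM, lay above siControl replicate 1, at 4272, while the siACO1 libraries, up to 4263, stayed below it. For the 17 DNA replication and cycling genes the control sums were 3165 to 3295 CPM, beside 2536 to 2810 with siACLY, 2637 to 2899 with siACO1 and 3292 to 3815 with siSLC25A1. In bulk RNA fewer cells in S phase and less RNA per such cell cannot be told apart, and the part of cell cycle differences in the results was not tested.

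**Figure D3:**
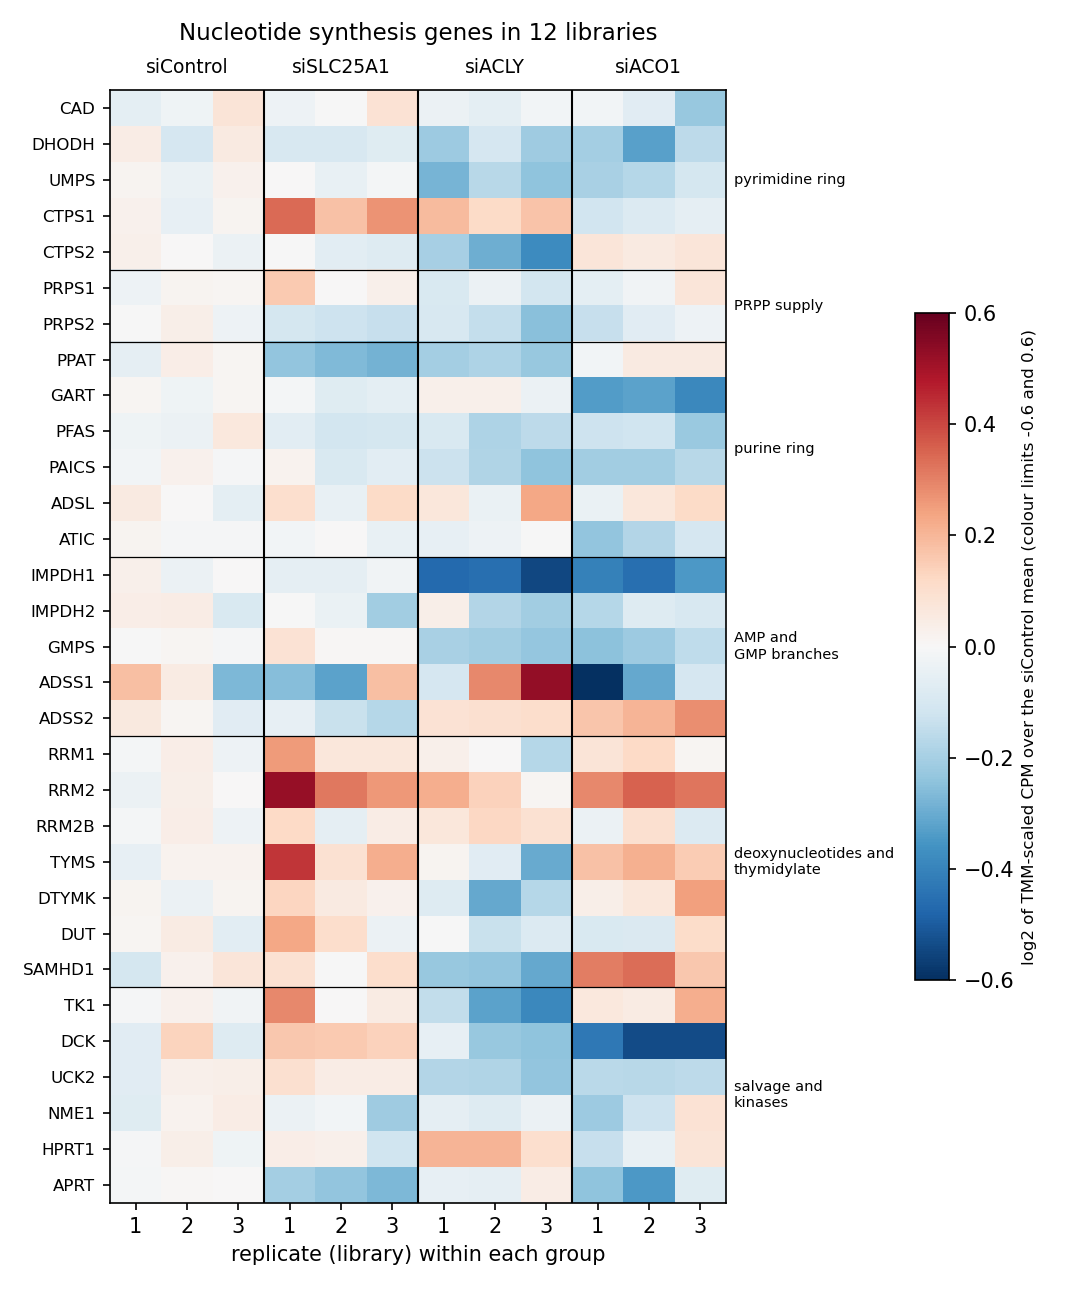
Log2 of the TMM-scaled CPM over the siControl mean (colour, cut at -0.6 and 0.6) for the 31 genes (rows, grouped by role) in the 12 libraries (columns, 3 per group). IMPDH1 is low in all 6 libraries of siACLY and siACO1, and siSLC25A1 replicate 1 is the library with the highest RRM2 and TYMS; for ADSS1, which has few counts, 1 value lies beyond the colour limits.

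Of the pyrimidine ring enzymes, CAD, DHODH and UMPS carry out the route to UMP, and CTPS1 and CTPS2 turn UTP into CTP. UMPS was at 94.7, 91.2 and 95.3 CPM in siControl, 94.1, 90.8 and 93.2 in siSLC25A1, 77.2, 83.4 and 79.3 in siACLY and 81.9, 83.2 and 87.0 in siACO1. All libraries of siACLY and siACO1 lay below the lowest control library, with log2 fold change -0.23, SE 0.04, adjusted p 1.41e-04 in siACLY and -0.16, adjusted p 0.00584 in siACO1. DHODH, the step on the inner mitochondrial membrane, was at 43.0, 38.9 and 43.4 CPM in siControl, 39.1, 39.0 and 39.7 in siSLC25A1, 35.9, 39.0 and 36.0 in siACLY and 36.3, 33.3 and 37.4 in siACO1. It fell in siACO1 (log2 fold change -0.23, SE 0.06, adjusted p 0.00303), where no library overlapped the controls. In siACLY it fell with an overlap of 1 library (-0.18, adjusted p 0.0183), a call that was lost without siControl replicate 1 or 3 or siACLY replicate 1 or 3, each with -0.16, and with library totals (-0.13). CAD, the enzyme that starts the route, was at 414 ± 20.8 CPM in siControl and passed the test in no knockdown (0.02, -0.04 and -0.10 in siSLC25A1, siACLY and siACO1), although without siACO1 replicate 1 it was called in siACO1 (-0.15). It was called in siSLC25A1 against siACO1 (0.12, adjusted p 0.0415), and without siACO1 replicate 3 this was 0.07 and no longer called; the call was also lost without siControl replicate 2 (0.12) or siSLC25A1 replicate 2 (0.14) or 3 (0.09), with the replicate block (0.12), with library totals (0.08), with no filter or at least 10 counts in every library (0.11 each), and with only the 2 groups fitted (0.12). UMPS was higher in siSLC25A1 than in siACLY (0.21, adjusted p 4.19e-04) and than in siACO1 (0.14, adjusted p 0.0123); the last call was lost without siACO1 replicate 1 (0.12), with library totals (0.10) and with no filter (0.13).

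In siACLY the CTP synthases went opposite ways, CTPS1 up and CTPS2 down. CTPS1 was at 152, 145 and 151 CPM in siControl, 189, 169 and 180.1 in siSLC25A1, 170.4, 162 and 169 in siACLY and 138, 141 and 144 in siACO1. It rose in siSLC25A1 (log2 fold change 0.26, SE 0.04, adjusted p 4.16e-05) and in siACLY (0.16, adjusted p 0.00436), with every library of both groups above the controls, and had a value of -0.08, adjusted p 0.149, in siACO1. CTPS2 was at 63.6, 62.3 and 60.8 CPM in siControl, 62.1, 59.6 and 58.9 in siSLC25A1, 54.2, 50.8 and 47.8 in siACLY and 65.4, 64.6 and 65.5 in siACO1. CTPS2 fell in siACLY (log2 fold change -0.29, SE 0.05, adjusted p 3.89e-05), where all 3 libraries lay below the controls, and had values of -0.05 and 0.07 in siSLC25A1 and siACO1, neither past the threshold. The ratio of CTPS1 to CTPS2 CPM within a library was 2.40, 2.32 and 2.49 in siControl, 3.05, 2.84 and 3.05 in siSLC25A1, 3.15, 3.19 and 3.52 in siACLY and 2.11, 2.19 and 2.20 in siACO1. It was above every control in siSLC25A1 and siACLY and below every control in siACO1. An exact two-sided permutation test of 3 against 3 libraries cannot go below p = 0.1, and each of these 3 gave p = 0.1 (0.113 adjusted over the 9 ratios tested here and below). Between knockdowns, CTPS1 was higher in siSLC25A1 than in siACO1 (0.35, adjusted p 1.76e-07) and higher in siACLY than in siACO1 (0.24, adjusted p 4.28e-05), and CTPS2 was lower in siACLY than in siACO1 (-0.35, adjusted p 1.35e-06) and than in siSLC25A1 (0.24, adjusted p 4.73e-04, as siSLC25A1 over siACLY). CTPS1 in siSLC25A1 against siACLY (0.10, adjusted p 0.0624) was called without siSLC25A1 replicate 2 (0.15) or siACO1 replicate 3 (0.11). It was also called with the replicate block (0.10), with median-of-ratios size factors (0.11) and with only the 2 groups fitted (0.11).

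PRPP, on which every purine is built, is made by PRPS1 and PRPS2. PRPS2 was at 188, 193 and 184 CPM in siControl, 175, 172 and 171 in siSLC25A1, 176, 170.2 and 158 in siACLY and 171, 179 and 184 in siACO1. It fell in siACLY (log2 fold change -0.16, SE 0.04, adjusted p 0.00367) and, close to the threshold, in siSLC25A1 (-0.12, adjusted p 0.0451). The siSLC25A1 call was lost without any 1 library of siControl or siSLC25A1 (-0.14 to -0.11), without siACLY replicate 2 or siACO1 replicate 2 (-0.12 each), with median-of-ratios size factors and with no filter. PRPS1, at 136 ± 2.42 CPM in siControl, passed the test in no knockdown, with intervals of -0.03 to 0.16, -0.17 to 0.02 and -0.09 to 0.09 on the log2 scale in siSLC25A1, siACLY and siACO1. PRPS1 was higher in siSLC25A1 than in siACLY (0.14, adjusted p 0.0157), a call lost without siSLC25A1 replicate 1 (0.10) or siACLY replicate 3 (0.13) and with library totals (0.10).

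The 6 enzymes of the purine ring did not move as one. PPAT, which commits PRPP to the pathway, was at 72.8, 77.4 and 76.1 CPM in siControl, 64.0, 62.8 and 62.0 in siSLC25A1, 65.5, 66.3 and 64.5 in siACLY and 74.7, 78.4 and 78.3 in siACO1. Every library of siSLC25A1 and siACLY lay below the controls, while siACO1 overlapped them: PPAT fell in siSLC25A1 (log2 fold change -0.26, SE 0.05, adjusted p 9.09e-05) and siACLY (-0.21, adjusted p 6.14e-04) and had 0.03, adjusted p 0.617, in siACO1. PAICS, which starts from the other end of the stretch shown above, was at 392, 404 and 396 CPM in siControl, 403, 373 and 381 in siSLC25A1, 364, 350.2 and 336 in siACLY and 344, 344 and 354 in siACO1. It fell in siACLY (log2 fold change -0.18, SE 0.04, adjusted p 6.37e-04) and siACO1 (-0.19, adjusted p 2.97e-04), and in siSLC25A1 it had -0.04, adjusted p 0.51. Against siACO1, siSLC25A1 had lower PPAT (-0.29, adjusted p 5.67e-06) and higher PAICS (0.15, adjusted p 0.00313). Against siACLY, PAICS was higher in siSLC25A1 (0.14, adjusted p 0.00801), a call lost without siSLC25A1 replicate 1 (0.11) or siACLY replicate 3 (0.12).

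Set as a ratio within each library, PPAT over PAICS CPM was 0.186, 0.192 and 0.192 in siControl, 0.159, 0.168 and 0.163 in siSLC25A1, 0.180, 0.189 and 0.192 in siACLY and 0.217, 0.228 and 0.221 in siACO1. The siSLC25A1 libraries were all below the controls and the siACO1 libraries all above them, while siACLY overlapped them. The exact permutation p was 0.1 for siSLC25A1 and siACO1, the smallest that 3 against 3 allows, and 0.6 for siACLY, or 0.113, 0.113 and 0.6 when adjusted over the 9 ratios. These ratios are not per length and serve only to compare libraries. In GENCODE 29, 11.9% of the 31-base stretches of PPAT and 14.5% of those of PAICS occur in other genes, among them their pseudogenes.

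GART, which carries out several of the ring steps in 1 protein, was at 361, 353 and 362 CPM in siControl, 356, 341 and 345 in siSLC25A1, 366, 367 and 349.8 in siACLY and 285, 287 and 274 in siACO1. It fell in siACO1 alone among the comparisons with siControl (log2 fold change -0.35, SE 0.04, adjusted p 2.34e-08), to 78.6% of control, and the difference itself was past the threshold both for siSLC25A1 against siACO1 (0.30, adjusted p 2.43e-07) and for siACLY against siACO1 (0.36, adjusted p 1.06e-08). ATIC, the last enzyme of the ring, followed with -0.17, adjusted p 9.22e-04, in siACO1, and was higher in siSLC25A1 (0.15, adjusted p 0.00274) and in siACLY (0.14, adjusted p 0.00396) than in siACO1; the call between siACLY and siACO1 was lost without siACO1 replicate 1 (0.11). GART and ATIC are the enzymes that take formyl groups from folate. PFAS fell by little in siACLY (-0.14, adjusted p 0.0108) and siACO1 (-0.16, adjusted p 0.00522). The siACLY call of PFAS was lost without siControl replicate 3 (-0.12) or siACLY replicate 2 (-0.13), and both calls were lost with library totals (-0.10 and -0.11). ADSL, which acts both in the ring and on the way to AMP, had values of 0.06, 0.09 and 0.05 in the 3 knockdowns, with intervals no lower than -0.12 and no higher than 0.25.

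**Figure D4:**
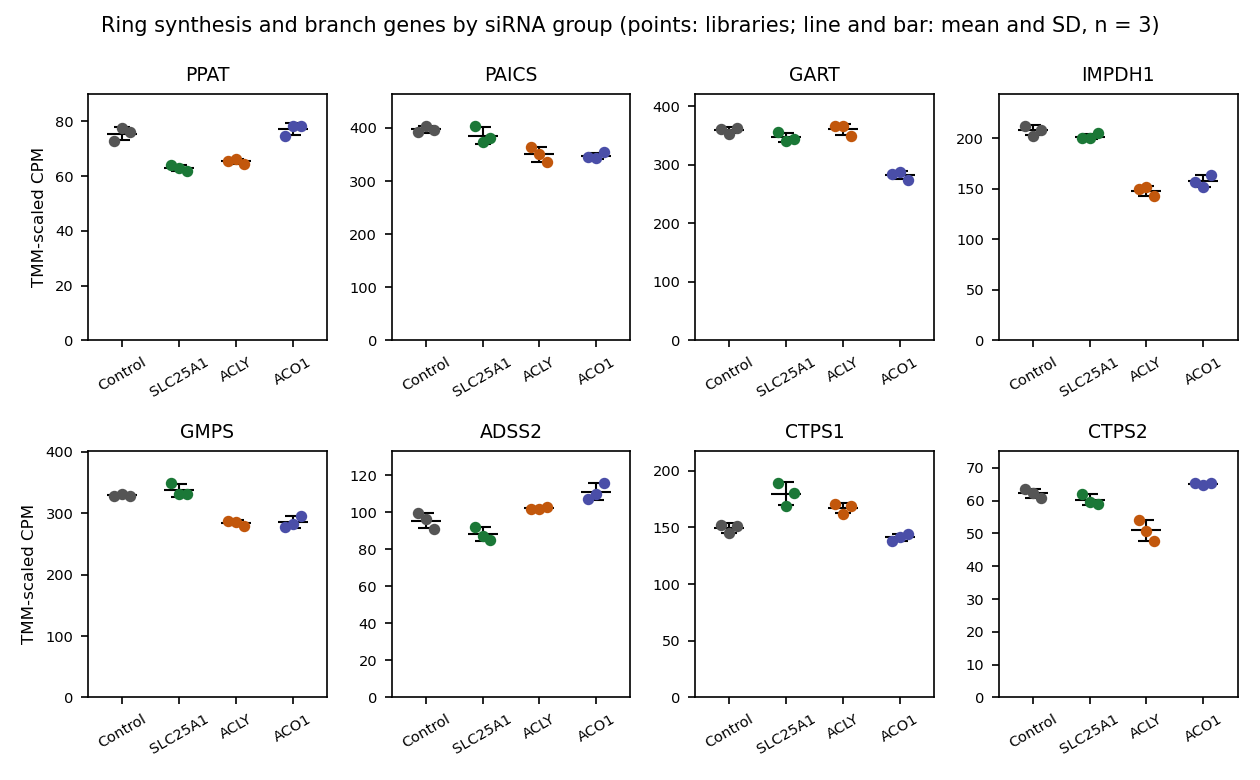
TMM-scaled CPM (y axis, from 0) of 8 genes of ring synthesis and of the AMP, GMP and CTP branches in siControl, siSLC25A1, siACLY and siACO1; points are libraries, the line and bar the mean and SD of 3. PPAT is low in siSLC25A1 and siACLY, PAICS and GMPS in siACLY and siACO1, GART in siACO1, and CTPS1 and CTPS2 go opposite ways in siACLY.

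From IMP, the GMP branch runs through IMP dehydrogenase (IMPDH1 and IMPDH2) and GMPS, and the AMP branch through adenylosuccinate synthase (ADSS1 and ADSS2) and ADSL. IMPDH1 was at 212, 202 and 208 CPM in siControl, 200.2, 199.8 and 205 in siSLC25A1, 150.2, 152 and 142 in siACLY and 157, 152 and 164 in siACO1. The fall in siACLY (log2 fold change -0.49, SE 0.04, adjusted p 1.51e-10) was to 71.4% of control and that in siACO1 (-0.40, adjusted p 5.86e-09) to 75.8%, and no library of either group overlapped siControl or siSLC25A1. In siSLC25A1 IMPDH1 had -0.04, adjusted p 0.521, and it was higher there than in siACLY (0.44, adjusted p 1.33e-09) and in siACO1 (0.36, adjusted p 3.45e-08). IMPDH2, with its few counts, had -0.08, -0.10 and -0.12 in siSLC25A1, siACLY and siACO1, none past the threshold, and an interval of -0.35 to 0.15 in siACLY. GMPS was at 329, 332 and 327 CPM in siControl, 349.9, 331 and 331 in siSLC25A1, 288, 285 and 280.0 in siACLY and 278, 283 and 296 in siACO1. GMPS fell in siACLY (log2 fold change -0.21, SE 0.04, adjusted p 6.99e-05) and siACO1 (-0.20, adjusted p 1.03e-04) and had 0.04, adjusted p 0.588, in siSLC25A1, with siSLC25A1 above siACLY (0.25, adjusted p 1.02e-05) and above siACO1 (0.24, adjusted p 9.69e-06).

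On the AMP side ADSS2 was at 99.5, 96.3 and 91.1 CPM in siControl, 92.3, 87.2 and 84.9 in siSLC25A1, 102, 102 and 103 in siACLY and 107, 110.1 and 116 in siACO1. It rose in siACO1 (log2 fold change 0.22, SE 0.05, adjusted p 3.70e-04), where every library lay above the controls, and was lower in siSLC25A1 than in siACLY (-0.21, adjusted p 6.27e-04) and in siACO1 (-0.33, adjusted p 8.88e-07). Its values against siControl in siSLC25A1 (-0.12, adjusted p 0.0745) and siACLY (0.09, adjusted p 0.108) did not pass; the siSLC25A1 value was called without siControl replicate 3 or siSLC25A1 replicate 1 (-0.15 each) or siACO1 replicate 3 (-0.12) or with only the 2 groups fitted (-0.12), and the siACLY value with library totals (0.14) or only the 2 groups fitted (0.09). The call of ADSS2 between siACLY and siACO1 (-0.12, adjusted p 0.0326) was lost without any 1 library of siACLY (-0.13 to -0.12) and without siACO1 replicate 3 (-0.09), with no filter and with only the 2 groups fitted (-0.12 each). In siACO1, ADSL and ADSS1 of this branch were not called (0.05, adjusted p 0.686, and -0.39, adjusted p 0.28), nor was IMPDH2 of the GMP branch (-0.12, adjusted p 0.503). ADSS1 had 0.61, adjusted p 0.0694, between siACLY and siACO1, and its interval of 0.06 to 1.16 is wide.

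Deoxynucleotides come from ribonucleotide reductase, whose large subunit is RRM1 and whose small subunit is RRM2 or RRM2B. RRM2 was at 288, 303 and 296 CPM in siControl, 424, 369 and 354 in siSLC25A1, 344, 325 and 298 in siACLY and 361, 377 and 369.6 in siACO1. It rose in siSLC25A1 (log2 fold change 0.37, SE 0.06, adjusted p 5.05e-05) and siACO1 (0.32, adjusted p 1.02e-04), with all libraries of both above the controls, and in siACLY, which overlapped the controls, it had 0.13, adjusted p 0.0861. The siACLY value was called without siSLC25A1 replicate 1 (0.12) or siACLY replicate 3 (0.18), with library totals (0.17), with no filter (0.12) and with only the 2 groups fitted (0.12). RRM2 was lower in siACLY than in siSLC25A1 (0.24, adjusted p 0.00179, as siSLC25A1 over siACLY) and than in siACO1 (-0.19, adjusted p 0.00801, as siACLY over siACO1); the last call was lost without siACLY replicate 3 (-0.14) or siACO1 replicate 3 (-0.20). RRM1 passed the test in no knockdown, with 0.13, -0.04 and 0.07 in siSLC25A1, siACLY and siACO1, and was higher in siSLC25A1 than in siACLY (0.18, adjusted p 0.0122), a call lost without siSLC25A1 replicate 1 (0.11) or siACLY replicate 3 (0.12) and with library totals (0.14). The RRM1 value in siSLC25A1 was called without siACLY replicate 3 (0.14), with the replicate block (0.13) and with only the 2 groups fitted (0.13). For RRM1, siACLY was called below siACO1 without siACLY replicate 1 (-0.15) and with the block (-0.11). RRM2B, at 38.0 ± 0.966 CPM in siControl, had 0.04, 0.09 and -0.01, none past the threshold.

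The ratio of RRM2 to RRM1 CPM within a library concerns transcripts only, is not per length and serves only to compare libraries. It was 1.53, 1.56 and 1.59 in siControl, 1.87, 1.86 and 1.78 in siSLC25A1, 1.78, 1.71 and 1.77 in siACLY and 1.81, 1.83 and 1.94 in siACO1. Every knockdown library lay above every control library, and the exact permutation p was 0.1 in each, the smallest possible, or 0.113 adjusted; the same 3 controls serve all 3 comparisons. For RRM2 the overlapped exon bases named above make the ratio uncertain as well.

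TYMS, thymidylate synthase, was at 69.0, 72.5 and 72.5 CPM in siControl, 95.8, 76.0 and 82.8 in siSLC25A1, 72.0, 67.9 and 57.8 in siACLY and 80.5, 82.7 and 79.1 in siACO1. It rose in siSLC25A1 (log2 fold change 0.25, SE 0.08, adjusted p 0.0304) with all 3 libraries above the controls, but siSLC25A1 replicate 1 lay well above the others, and without it the value was 0.16 and no longer called. The call was also lost without any 1 control library (0.23 to 0.27), without siSLC25A1 replicate 3 (0.27) and without siACO1 replicate 3 (0.26). In siACO1 all 3 libraries were above the controls too, at 0.18, adjusted p 0.0808, which was called without siSLC25A1 replicate 1 or 2 or siACLY replicate 3, with no filter and with only the 2 groups fitted (0.18 each), and with library totals (0.23). In siACLY the value was -0.11, adjusted p 0.312. TYMS was lower in siACLY than in siSLC25A1 (0.36, adjusted p 0.00181, as siSLC25A1 over siACLY) and than in siACO1 (-0.29, adjusted p 0.00683, as siACLY over siACO1). ENOSF1, which overlaps TYMS on the other strand, had 0.38 in siACLY (adjusted p 5.25e-06) and -0.23 in siACO1 (adjusted p 0.00227). Whether reads of one were counted for the other was not tested.

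DTYMK adds the second phosphate to dTMP, and DUT removes dUTP and supplies dUMP for TYMS. DTYMK was at 88.6, 85.4 and 88.4 CPM in siControl, 95.8, 90.7 and 89.1 in siSLC25A1, 82.9, 70.7 and 77.6 in siACLY and 89.5, 91.5 and 104 in siACO1. It fell in siACLY (log2 fold change -0.18, SE 0.06, adjusted p 0.0127), where no library overlapped the controls, but the call was lost without siACLY replicate 2 (-0.13). It was lower in siACLY than in siSLC25A1 (0.25, adjusted p 8.98e-04, as siSLC25A1 over siACLY) and than in siACO1 (-0.30, adjusted p 7.97e-05, as siACLY over siACO1). In siACO1, where every library lay above the controls, DTYMK had 0.12, adjusted p 0.0944. That value was called without siACO1 replicate 1 (0.16) and with library totals (0.17). DUT, whose window shown above holds a pair of E2F matches, had 0.11, -0.07 and -0.02 in siSLC25A1, siACLY and siACO1, none called. Between siSLC25A1 and siACLY it had 0.18, adjusted p 0.0321, with 1 library of siSLC25A1 inside the range of siACLY, and that call was lost without siSLC25A1 replicate 1 (0.11) or 2 (0.18) or siACLY replicate 2 (0.15) or 3 (0.17), and with library totals (0.14). Between siSLC25A1 and siACO1 DUT had 0.12, adjusted p 0.118. This was called without siSLC25A1 replicate 3 (0.19) or siACO1 replicate 3 (0.20).

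SAMHD1 is the enzyme that breaks deoxynucleoside triphosphates down. It was at 51.3, 56.2 and 58.0 CPM in siControl, 58.8, 55.1 and 59.4 in siSLC25A1, 47.1, 46.9 and 44.5 in siACLY and 68.3, 69.5 and 61.7 in siACO1. The siACLY libraries all lay below the controls and the siACO1 libraries all above: SAMHD1 fell in siACLY (log2 fold change -0.25, SE 0.06, adjusted p 6.68e-04) and rose in siACO1 (log2 fold change 0.27, SE 0.06, adjusted p 2.56e-04). The difference between siACLY and siACO1 was -0.52 on the log2 scale (SE 0.06, adjusted p 9.17e-09), the largest of the 14 calls in that contrast. SiSLC25A1, with 0.07, adjusted p 0.451, against siControl, lay between them, above siACLY (0.32, adjusted p 5.35e-05) and below siACO1 (-0.20, adjusted p 0.00405). In siACO1 the dNTPase and the reductase subunit RRM2 were both raised.

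**Figure D5:**
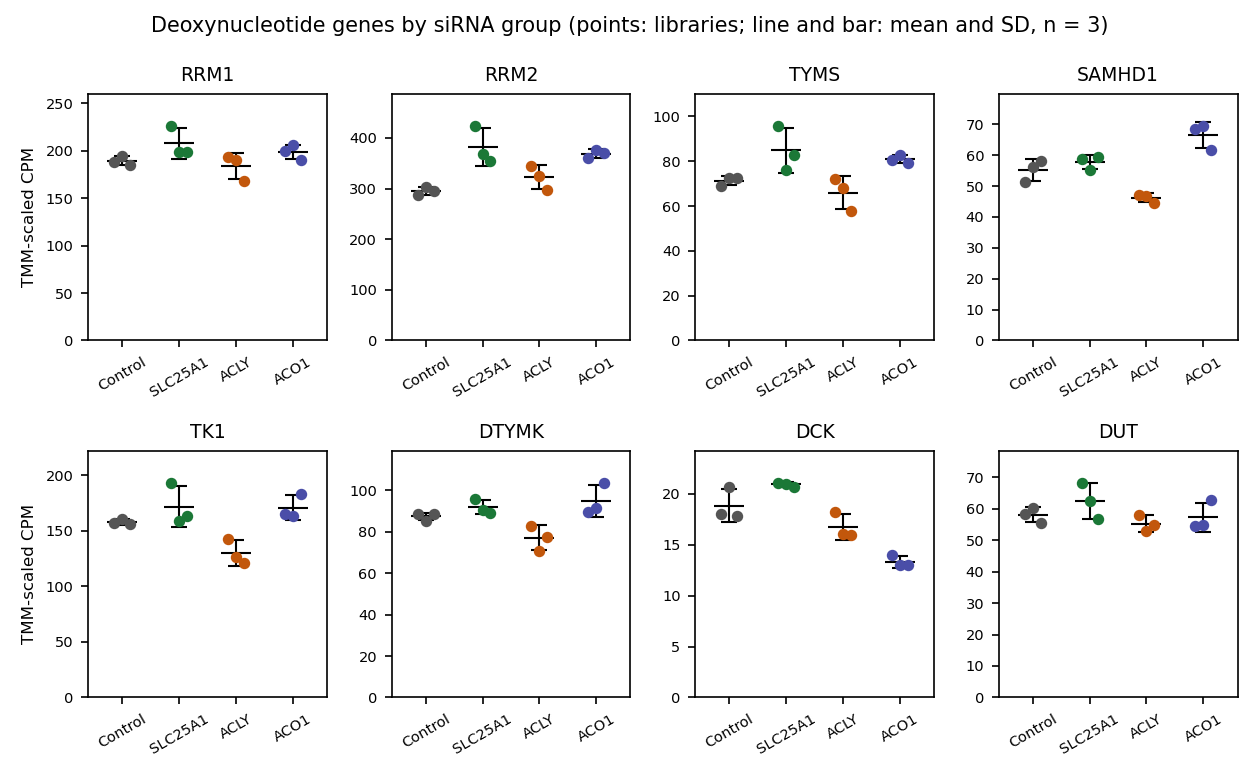
TMM-scaled CPM (y axis, from 0) of 8 genes of deoxynucleotide supply in siControl, siSLC25A1, siACLY and siACO1; points are libraries, the line and bar the mean and SD of 3. RRM2 is raised in siSLC25A1 and siACO1, SAMHD1 is low in siACLY and high in siACO1, and DCK is lowest in siACO1.

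Among the salvage kinases, TK1 phosphorylates thymidine and DCK deoxycytidine and other deoxynucleosides. TK1 was at 157, 161 and 156 CPM in siControl, 193, 158 and 164 in siSLC25A1, 143, 126 and 121 in siACLY and 165, 164 and 183 in siACO1. It fell in siACLY (log2 fold change -0.28, SE 0.07, adjusted p 0.00769), below every control library, and had 0.12, adjusted p 0.283, in siSLC25A1 and 0.11, adjusted p 0.258, in siACO1; siACLY lay below siSLC25A1 (0.40, adjusted p 5.93e-04, as siSLC25A1 over siACLY) and below siACO1 (-0.39, adjusted p 4.98e-04, as siACLY over siACO1). DCK was at 17.99, 20.69 and 17.82 CPM in siControl, 21.08, 20.99 and 20.71 in siSLC25A1, 18.19, 16.09 and 15.91 in siACLY and 13.99, 12.99 and 12.99 in siACO1. All siACO1 libraries were below all others, all siSLC25A1 libraries were at or just above the highest control, and DCK fell in siACO1 (log2 fold change -0.50, SE 0.08, adjusted p 8.79e-06) to 70.5% of control. SiSLC25A1 exceeded siACO1 by 0.65 (SE 0.08, adjusted p 1.13e-07), the largest difference of any called gene of the list in any of the 6 comparisons. DCK had -0.16, adjusted p 0.096, in siACLY and 0.15, adjusted p 0.18, in siSLC25A1; without siACLY replicate 1 the siACLY value was -0.24 and called. SiACLY differed from siACO1 (0.34, adjusted p 0.00107) and from siSLC25A1 (0.31, adjusted p 0.00213, as siSLC25A1 over siACLY). For TK1 the low group was siACLY and for DCK it was siACO1.

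UCK2, which phosphorylates uridine and cytidine, was at 95.1, 102 and 102 CPM in siControl, 106, 103 and 103 in siSLC25A1, 88.2, 87.9 and 84.6 in siACLY and 89.1, 88.6 and 89.4 in siACO1. UCK2 fell in siACLY (log2 fold change -0.20, SE 0.04, adjusted p 5.67e-04) and siACO1 (-0.16, adjusted p 0.00351), and siSLC25A1 was above both (0.26, adjusted p 2.53e-05 and 0.22, adjusted p 1.12e-04). APRT was at 136, 138 and 137 CPM in siControl, 119, 116 and 114 in siSLC25A1, 133, 132 and 141 in siACLY and 116, 108 and 130.4 in siACO1. It fell in siSLC25A1 (log2 fold change -0.24, SE 0.05, adjusted p 9.85e-04) and siACO1 (-0.21, adjusted p 0.00113), with no overlap with the controls, and had -0.02, adjusted p 0.796, in siACLY, which lay above siSLC25A1 (-0.22, adjusted p 0.00127, as siSLC25A1 over siACLY) and above siACO1 (0.19, adjusted p 0.00242). HPRT1, which salvages hypoxanthine and guanine, rose in siACLY (log2 fold change 0.17, SE 0.05, adjusted p 0.00912; 101, 105 and 100.2 CPM in siControl and 117, 118 and 109 in siACLY), and that call was lost without siControl replicate 3, siACLY replicate 1 or siACLY replicate 2, each with 0.15. HPRT1 was higher in siACLY than in siSLC25A1 (-0.19, adjusted p 0.00579, as siSLC25A1 over siACLY), lost without siSLC25A1 replicate 3 (-0.13), and higher than in siACO1 (0.20, adjusted p 0.00193). NME1, a nucleoside diphosphate kinase, had -0.09, -0.05 and -0.08 in siSLC25A1, siACLY and siACO1, none called with all libraries.

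The other genes of nucleotide metabolism were taken from lists chosen with earlier results of these data known, and for each list the share of all tested genes called the same way in the same comparison stands beside its own. Of 21 further salvage genes and nucleotide kinases tested, 3 rose and 4 fell in siSLC25A1 (14.3% and 19.05%, beside 10.3% and 9.27% of all genes), 4 rose and 7 fell in siACLY (19.05% and 33.3%, beside 18.4% and 18.3% of all genes), and 5 rose and 4 fell in siACO1 (23.8% and 19.05%, beside 17.8% and 19.3% of all genes), with medians of -0.02, -0.08 and 0.02. The number that fell in siSLC25A1 was 2 without siControl replicates 1 or 3 and 1 without siSLC25A1 replicate 3; the number that fell in siACO1 was 2 without siACO1 replicate 1 or siControl replicate 1 and with library totals. UPP1, uridine phosphorylase, rose in siSLC25A1 (0.71, adjusted p 7.68e-08) and fell in siACO1 (-1.10, adjusted p 5.13e-11), and differed between these groups by 1.80 (adjusted p 3.53e-16). Of 18 genes of breakdown, 4 rose and 4 fell in siSLC25A1 (22.2% and 22.2%, beside 10.3% and 9.27% of all genes), 4 rose and 4 fell in siACLY (22.2% and 22.2%, beside 18.4% and 18.3% of all genes), and 3 rose and 4 fell in siACO1 (16.7% and 22.2%, beside 17.8% and 19.3% of all genes). The number that fell in siACLY was 1 with library totals and 2 without siACLY replicate 2 or siControl replicate 1. AMPD3, an AMP deaminase, rose in siSLC25A1 (0.85, adjusted p 6.89e-07), siACLY (1.22, adjusted p 1.76e-10) and siACO1 (0.42, adjusted p 0.00274), and ADA, adenosine deaminase, fell in siSLC25A1 (-0.77, adjusted p 4.94e-09). AMPD3 did not have the largest value in siACO1, where the 18 genes, called or not, ran from -0.52 to 1.12. Of 6 transporters tested, 0 rose and 2 fell in siSLC25A1 (0% and 33.3%, beside 10.3% and 9.27% of all genes), 1 rose and 2 fell in siACLY (16.7% and 33.3%, beside 18.4% and 18.3% of all genes), and 2 rose and 0 fell in siACO1 (33.3% and 0%, beside 17.8% and 19.3% of all genes). Each 0 among the transporters was also 0 at an unadjusted p under 0.05 and with DESeq2. The number that fell in siSLC25A1 was 1 without siSLC25A1 replicates 2 or 3 or siControl replicates 1 or 2; the number that rose in siACLY was 2 with library totals and 0 without siACLY replicates 2 or 3 or siControl replicates 1 or 2; the number that rose in siACO1 was 1 without siControl replicates 2 or 3. The nucleoside carrier SLC29A2 fell in siSLC25A1 (-0.79, adjusted p 4.02e-08) and siACLY (-0.51, adjusted p 1.07e-05) and rose in siACO1 (0.28, adjusted p 0.00533).

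Folate enzymes supply the formyl groups for GART and ATIC and the methylene group for TYMS. Of 16 tested, 3 rose and 0 fell in siSLC25A1 (18.8% and 0%, beside 10.3% and 9.27% of all genes), 4 rose and 2 fell in siACLY (25.0% and 12.5%, beside 18.4% and 18.3% of all genes), and 2 rose and 10 fell in siACO1 (12.5% and 62.5%, beside 17.8% and 19.3% of all genes), with medians of 0.11, 0.16 and -0.27. The 0 that fell in siSLC25A1 was 1 at an unadjusted p under 0.05 and 0 with DESeq2. The number that rose in siSLC25A1 was 5 without siACO1 replicate 3 and with the replicate block; the number that rose in siACLY was 9 with library totals and 7 without siACO1 replicate 3; the number that fell in siACLY was 1 without siACLY replicates 2 or 3 or siControl replicates 1 or 3 and with library totals; the number that rose in siACO1 was 1 without siACO1 replicate 3. In siSLC25A1 against siACO1, 10 were higher and 2 lower (62.5% and 12.5%, beside 21.8% and 20.3% of all genes), and in siACLY against siACO1, 9 were higher and 1 lower (56.2% and 6.25%, beside 21.4% and 20.7% of all genes). MTHFD2, the mitochondrial enzyme of this route, rose in siSLC25A1 (0.24, adjusted p 7.52e-05) and siACLY (0.36, adjusted p 4.39e-08), and SHMT1, the cytosolic serine hydroxymethyltransferase, fell in siACO1 (-0.61, adjusted p 2.04e-04). These are not the largest values of the list. Log2 fold changes of the 16 genes, called or not, ran from -0.62 to 0.28 in siSLC25A1 and -0.35 to 0.86 in siACLY. In siACO1 they ran from -2.13 to 0.57.

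Genes that drive or mark the cell cycle were set beside the deoxynucleotide genes. Of 17 DNA replication and cycling genes, 3 rose and 1 fell in siSLC25A1 (17.6% and 5.88%, beside 10.3% and 9.27% of all genes), 0 rose and 12 fell in siACLY (0% and 70.6%, beside 18.4% and 18.3% of all genes), and 1 rose and 10 fell in siACO1 (5.88% and 58.8%, beside 17.8% and 19.3% of all genes), with medians of 0.06, -0.28 and -0.32. The 0 that rose in siACLY was 1 at an unadjusted p under 0.05 and 0 with DESeq2. The number that rose in siSLC25A1 was 1 without siSLC25A1 replicate 1 and 5 without siACO1 replicate 3; the number that fell in siSLC25A1 was 3 without siSLC25A1 replicate 1; the number that rose in siACLY was 1 with library totals; the number that rose in siACO1 was 3 without siACO1 replicate 3. PCNA, the sliding clamp of DNA polymerase, fell in siACLY (-0.90, adjusted p 4.18e-08), and CDC6, which loads the replicative helicase, fell in siACLY (-0.61, adjusted p 7.55e-11) and siACO1 (-0.62, adjusted p 5.49e-11). The helicase subunit gene MCM5 fell in siACO1 (-0.56, adjusted p 2.58e-05). RRM2 and SAMHD1 thus rose in siACO1 libraries in which more of these genes fell than rose, while DTYMK and SAMHD1 fell in siACLY. Of 18 E2F, RB and DREAM factors, 4 rose and 1 fell in siSLC25A1 (22.2% and 5.56%, beside 10.3% and 9.27% of all genes), 1 rose and 11 fell in siACLY (5.56% and 61.1%, beside 18.4% and 18.3% of all genes), and 5 rose and 3 fell in siACO1 (27.8% and 16.7%, beside 17.8% and 19.3% of all genes). The number that rose in siSLC25A1 was 2 without siSLC25A1 replicate 1; the number that rose in siACLY was 0 without siACLY replicates 2 or 3 or siControl replicates 1 or 3; the number that rose in siACO1 was 2 without siACO1 replicate 2 or siControl replicates 1, 2 or 3 and 3 without siACO1 replicate 1. E2F1, an activator of S phase genes, rose in siSLC25A1 (0.24, adjusted p 0.00211) and fell in siACLY (-0.54, adjusted p 1.87e-08) and siACO1 (-0.43, adjusted p 7.19e-07). Log2 fold changes of the 18 factors, called or not, ran from -0.60 to 0.30 in siSLC25A1 and -0.60 to 0.35 in siACLY. In siACO1 they ran from -0.43 to 0.54, and more of the factors were called higher than lower.

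Of 11 p53 targets, the family to which RRM2B belongs, 3 rose and 1 fell in siSLC25A1 (27.3% and 9.09%, beside 10.3% and 9.27% of all genes), 5 rose and 2 fell in siACLY (45.5% and 18.2%, beside 18.4% and 18.3% of all genes), and 3 rose and 2 fell in siACO1 (27.3% and 18.2%, beside 17.8% and 19.3% of all genes). The number that rose in siACLY was 3 without siControl replicates 1 or 2; the number that fell in siACO1 was 1 without siACO1 replicate 1 or siControl replicate 3 and with library totals. CDKN1A, a CDK inhibitor, rose in siSLC25A1 (1.63, adjusted p 1.46e-07) and siACLY (1.52, adjusted p 1.43e-07) from a low level of 1.27 CPM. Of 11 genes of the MYC network, whose members bind E-boxes, 1 rose and 3 fell in siSLC25A1 (9.09% and 27.3%, beside 10.3% and 9.27% of all genes), 2 rose and 1 fell in siACLY (18.2% and 9.09%, beside 18.4% and 18.3% of all genes), and 2 rose and 2 fell in siACO1 (18.2% and 18.2%, beside 17.8% and 19.3% of all genes). Each of these counts but the 3 that fell in siSLC25A1 moved by more than 1.5 times, or to 0, when 1 library was left out, within 0 to 2. Library totals gave 5 that rose and 1 that fell in siACO1. MAX, the partner of MYC, fell in siSLC25A1 (-0.44, adjusted p 1.09e-06), and MYC itself had 0.0028, -0.01 and -0.04 in siSLC25A1, siACLY and siACO1, with adjusted p-values of 0.972, 0.936 and 0.5.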

How the data were processed

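The authors deposited gene counts in a single table, as whole numbers with no normalization, 1 column per library. The submitters' processing notes name Trim Galore, STAR 2.7.0e and DESeq2 with GRCh38 and a mouse build; the counting tool, annotation and strand setting are not given in the sources used here. Symbols came from a table of gene names that matched 89.4% of identifiers. Coordinates, exon lengths and overlaps are those of GENCODE release 29 (GRCh38), and promoters are RefSeq's.

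Genes were kept with edgeR's filterByExpr, libraries scaled by TMM, and counts fitted by robust quasi-likelihood (edgeR 4.0.16, R 4.3.3) to the means of 4 groups over 12 libraries (8 residual degrees of freedom; common biological coefficient of variation 4.89%). Tests are two-sided, with Benjamini-Hochberg adjustment over 16197 genes. Levels are TMM-scaled CPM; SE is the log2 fold change divided by the root of F. All genes but ADSS1 and IMPDH2 had at least 348 counts in every library, so counting error weighs most in these. Within-library ratios were tested by exact permutation.

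All 31 genes are named. Up to 8 called genes with the largest absolute change per comparison got values in every library. Up to 3 called genes per other list were named, and these need not be those with the largest change. Genes and lists were chosen with earlier results of these data known. The scripts were tested on simulated data. Alternatives were median-of-ratios factors, library totals, the DESeq2 1.42.0 Wald test, no filter, at least 10 counts in every library, a replicate block, only the 2 groups compared, and each library left out. Protein sequences were not used here.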

Additional observations from a re-analysis of the deposited data

How the results depend on the processing

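The fits gave 80 calls of the 31 genes over the 6 comparisons, and 63 of them were made in each of the 19 other settings, of which 12 left out 1 library; no called value changed sign. Counts of genes called higher moved by more than 1.5 times in siACLY against siControl, to 4 with library totals and to 4 with only these groups fitted, and in siACO1 against siControl, to 5 with library totals; the cause was not tested. With 1 library left out, the counts called higher and lower against siControl were 2 to 4 and 2 to 4 in siSLC25A1, 1 to 3 and 11 to 13 in siACLY, and 3 to 4 and 11 to 13 in siACO1. The same ranges were 11 to 16 and 2 to 3 for siSLC25A1 against siACLY, 9 to 12 and 3 to 3 for siSLC25A1 against siACO1, and 5 to 7 and 6 to 9 for siACLY against siACO1. The DESeq2 Wald test changed no call of the 31 genes in any comparison.

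The labels do not say whether same-numbered replicates are paired. Their deviations from the group means correlated at -0.05 to 0.11 across genes, beside -0.10 to 0.12 for unlike numbers. Only in siACLY against siACO1 were all same-numbered pairs (0.017 to 0.080) above all others (at most 0.016). Against siControl, a fit with the replicate number as a block gave 4 higher and 3 lower in siSLC25A1. It gave 2 higher and 13 lower in siACLY and 3 higher and 11 lower in siACO1. Between knockdowns the block gave 16 higher and 3 lower for siSLC25A1 against siACLY, 9 higher and 3 lower for siSLC25A1 against siACO1 and 6 higher and 9 lower for siACLY against siACO1. Beside the values given with CAD, CTPS1 and RRM1, it changed no other call. Depth limits ADSS1 and, less so, IMPDH2, whose low counts, like those of ADSL, may also come from the annotation used for counting, which was not tested.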
